A study of Mus musculus with 10 samples.

Results

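Cytosolic ribosomal protein genes are described here in lung tissue of wild-type (WT) mice, measured by RNA sequencing in 10 libraries. They were the 89 of 54532 genes of the count table whose symbols follow the names of the small-subunit proteins (Rps), the large-subunit proteins (Rpl), the stalk proteins Rplp0, Rplp1 and Rplp2, and Rpsa. The choice used names and no levels, with 1 exception: Rps29, a small-subunit gene, had been singled out for its level in the lungs given TSLP. Its LPS+TSLP values are therefore a description with no test. The 3 groups were Vehicle (3 libraries), LPS (3 libraries) and LPS+TSLP (4 libraries), the last from lungs pretreated with recombinant TSLP before LPS. LPS is lipopolysaccharide, a bacterial outer-membrane component sensed by the receptor TLR4, and TSLP is thymic stromal lymphopoietin, an epithelial cytokine. Dose, route, time, age, sex and strain are not given in the labels, and nothing there says that the libraries of a group came from separate mice. The p-values below thus measure the spread between these samples, which may be technical.

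The ribosome is built from ribosomal RNA and a fixed set of proteins, most of them in a single copy, so their genes are usually expressed in step. Small-subunit proteins help to read the messenger RNA, large-subunit proteins surround the site of peptide bond formation and the exit tunnel, and the stalk recruits the elongation factors. Ribosomal protein mRNAs of mammals start with a run of pyrimidines, the terminal oligopyrimidine (TOP) motif, through which the kinase mTOR and the protein LARP1 control their translation and stability. Their spliced mRNAs have also left many processed copies in the mouse genome, so short reads can fit more than 1 gene.

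Of the 89 genes, 77 encode the core proteins, 31 of the small subunit and 46 of the large subunit, 3 of the latter in the stalk. The other 12 are paralogues or processed copies. A total of 85 genes passed the filter on low counts, among them all 77 core genes. The 4 that did not were the copies Rps12l1 and Rpl32l and the paralogues Rpl10l and Rpl39l, the latter 2 known from testis, with 0, 45, 0 and 26 counts over all libraries. Biotypes in the annotation (GENCODE, GRCm38) were protein-coding for 83 genes, processed pseudogene for 5 and transcribed processed pseudogene for 1.

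Total counts per library lay between 16175172 and 18374461. All 14 lung markers looked at, among them Sftpc, Ager, Scgb1a1 and Pecam1, were detected in every library. A pair of libraries stood apart. LPS replicate 1 had Xist at 206 CPM (CPM, counts scaled to the library total and adjusted by TMM), against 0.452 CPM or less in the other 9, and no Ddx3y count. Ddx3y also differed among the other libraries. It was at 7.92, 6.03 and 11.4 CPM in Vehicle, 70.1 and 89.6 CPM in LPS replicates 2 and 3, and 59.7 to 94.8 CPM in LPS+TSLP. All Vehicle libraries thus lay below the treated libraries with Ddx3y counts, a difference that cannot be told apart from treatment here. LPS+TSLP replicate 1 had 13.1% of its counts in mitochondrially encoded genes, against 2 to 6.5% in the other LPS+TSLP libraries and 1.11 to 2.58% elsewhere. Both carried high levels of ribosomal protein mRNA. For LPS against Vehicle, the count and median of all ribosomal protein genes tested are also given without LPS replicate 1. So are the calls of the ribosomal protein genes named as higher, except that of Rps2. Counts and medians by subunit, coding length or start region, and the results of the other gene lists, are given with all libraries only. In whole tissue, fewer cells of a type and less RNA per cell cannot be told apart.

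Ribosomal protein genes took a larger share of the libraries with LPS than with vehicle. The 89 genes held 2.49, 2.31 and 2.28% of all counts in Vehicle, 5.57, 3.78 and 3.13% in LPS, and 3.83, 3.17, 3.45 and 2.45% in LPS+TSLP (libraries here and below in order of replicate number). All LPS libraries were above all Vehicle libraries, and LPS+TSLP overlapped both, Vehicle through LPS+TSLP replicate 4 alone.

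**Figure D1:**
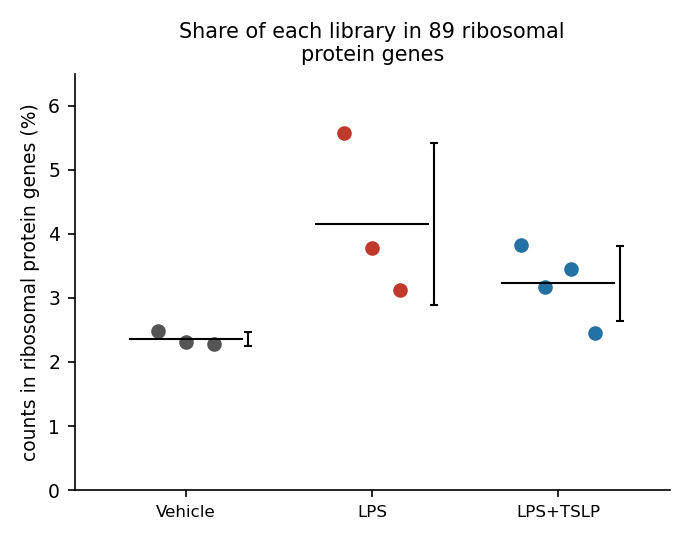
Percent of all counts in the 89 ribosomal protein genes, 1 point per library in replicate order from left to right, for Vehicle (n = 3), LPS (n = 3) and LPS+TSLP (n = 4). Lines are group means (2.36, 4.16 and 3.22%) and bars are 1 SD. The LPS points spread from 3.13 to 5.57% and lie above all Vehicle points.

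Comparing LPS with Vehicle, which asks what LPS does in the lung, 49 of the 85 ribosomal protein genes tested rose, or 57.6%, and 0 fell (edgeR quasi-likelihood test, Benjamini-Hochberg adjusted p under 0.05 over all 17139 genes tested). Among all genes tested 14.2% were called higher and 10.7% lower. The median log2 fold change of the 85 genes was 0.93, against 0.01 over all genes, and 84 of them lay above 0. In 72 of the 85 every LPS library exceeded every Vehicle library, which held for 24.7% of all genes tested. By subunit, 18 of 31 small-subunit genes rose, with a median log2 fold change of 0.92, as did 28 of 46 large-subunit genes, with a median of 0.90.

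The size of the difference varied between the LPS libraries. Over the core genes, the median log2 level relative to the Vehicle mean was 1.35, 0.81 and 0.48 in the LPS libraries and 0.75, 0.57, 0.65 and 0.10 in the LPS+TSLP libraries. LPS replicate 1 was the highest of the 10 libraries for 71 of the 77 core genes, and LPS replicate 3 the lowest of the LPS libraries for 64. Without LPS replicate 1, 11 genes (12.9%) were called higher, beside 8.83% of all genes, and the median was 0.66. Without the first replicates of both LPS and LPS+TSLP there were 33 calls (38.8%, beside 13.6%) and a median of 0.68. Leaving out Vehicle replicate 1, 2 or 3 gave 11, 7 and 20 calls, or 12.9, 8.24 and 23.5%, beside 5.8, 5.75 and 12.1% of all genes. The members' share was thus nearest to that of all genes without Vehicle replicate 2. The 7 genes called in every fit with 1 library left out were Rpl21, Rpl23, Rpl36a, Rpl38, Rps27l, Rps28 and Rps29. Rps29 is counted here and among all calls above, although the LPS libraries also entered the contrast for which it had been picked.

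**Figure D2:**
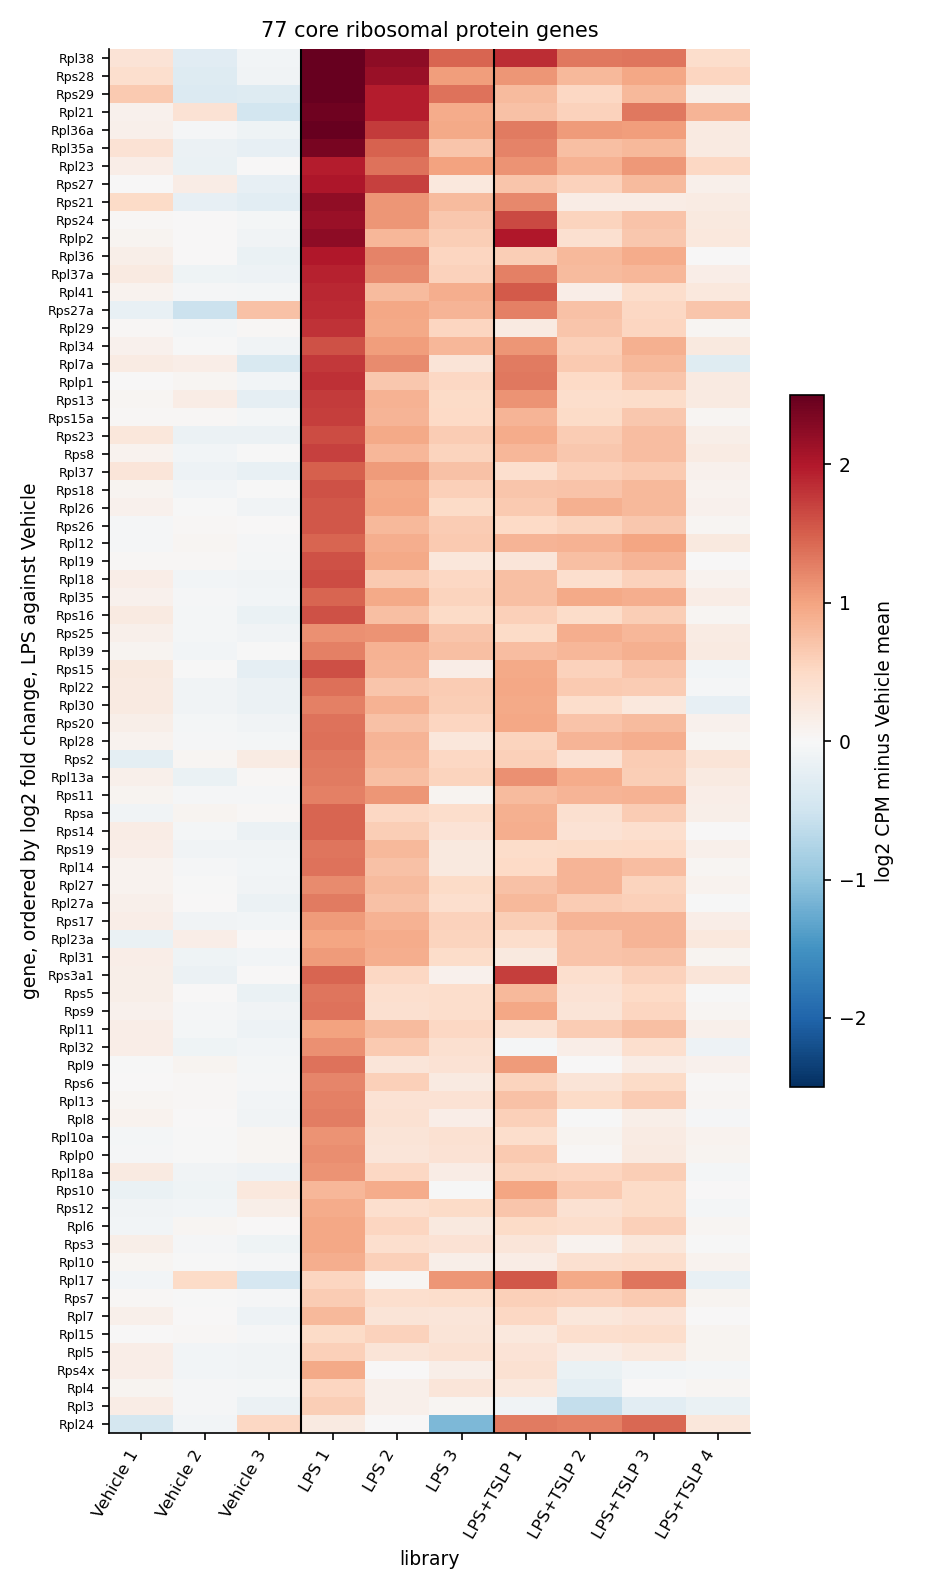
Heat map of 77 core ribosomal protein genes (rows, ordered by log2 fold change of LPS against Vehicle) in 10 libraries (columns, grouped by treatment). Colour gives log2 CPM minus the mean of the Vehicle libraries, red above and blue below. LPS replicate 1 is the reddest column, LPS+TSLP replicate 4 is nearly as pale as Vehicle, and Rpl24 in the bottom row runs against the rest.

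Rps29 encodes a short zinc-binding protein of the small-subunit head and lies at chr12:69157722-69159186 on the minus strand (ENSMUSG00000034892, GRCm38), with no other gene on its exons. It stood at 201, 100 and 102 CPM in Vehicle, 792, 494 and 327 CPM in LPS, and 219, 182, 222 and 140 CPM in LPS+TSLP. Every LPS library lay above all other libraries, and LPS+TSLP overlapped Vehicle through Vehicle replicate 1. The log2 fold change of LPS against Vehicle was 2.0 (SE 0.37, edgeR adjusted p = 0.0056). The LPS libraries in this test also entered the contrast for which the gene had been picked. The contrasts with LPS+TSLP, given with no test, had log2 fold changes of -1.50 against LPS and 0.50 against Vehicle.

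The deposited counts show the same order. Rps29 had 3583, 1878 and 1864 counts in Vehicle, 12999, 8755 and 5892 in LPS, and 3418, 3156, 4070 and 2292 in LPS+TSLP. Of the 50-base stretches of its transcripts 18.9% also occur in another gene, close to the median of 20.9% over the 85 genes tested. Without LPS replicate 1 the log2 fold change of LPS against Vehicle was 1.61 (adjusted p = 0.022).

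The genes whose profile over the 10 libraries came closest to that of Rps29 were sought by the root mean square difference of mean-centred log2 CPM, as a description. Among the ribosomal protein genes they were Rps28 (0.22), Rpl35a (0.34), Rpl36a (0.35), Rps21 (0.38) and Rpl38 (0.38), where the median over the core genes was 0.58 and the largest difference 1.26. Over all genes tested, Rps28 came second. Atp5k, a subunit of the mitochondrial ATP synthase, was closest at 0.18. Ndufb1-ps (0.24), the small nucleolar RNA gene Snord104 (0.28) and Pet100 (0.29), which encodes an assembly factor of cytochrome oxidase, followed.

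**Figure D3:**
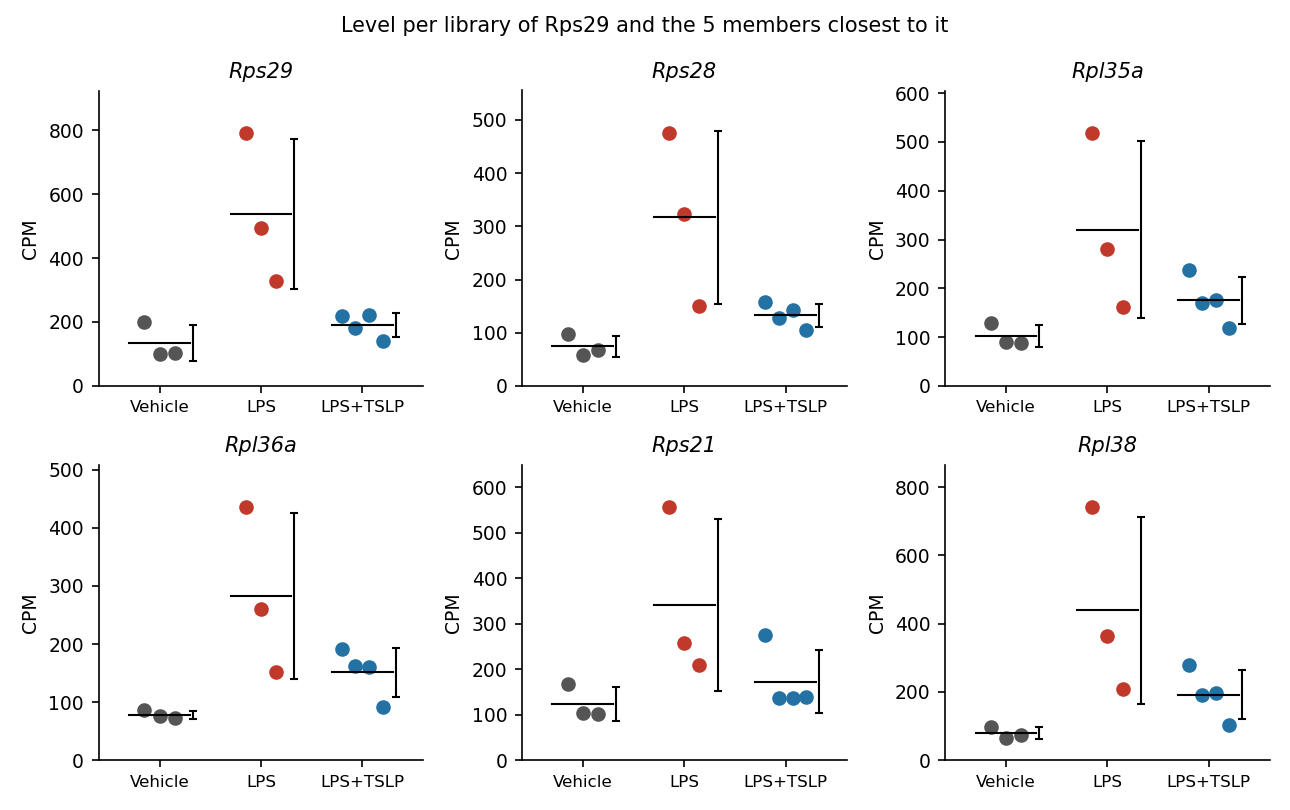
Level in CPM (linear axes from 0) of Rps29 and the 5 ribosomal protein genes closest to it, 1 point per library in replicate order from left to right within Vehicle, LPS and LPS+TSLP. Lines are group means and bars 1 SD. In each panel LPS replicate 1 is the highest point, at 792 CPM for Rps29.

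Among the small-subunit genes, Rps28 had the largest fold with LPS. It stood at 96.9, 58.4 and 68 CPM in Vehicle, 476, 323 and 151 CPM in LPS, and 157, 127, 142 and 106 CPM in LPS+TSLP. LPS and LPS+TSLP each lay above all Vehicle libraries, and overlapped each other between 151 and 157 CPM. LPS against Vehicle gave 2.09 on the log2 scale (SE 0.37, edgeR adjusted p = 0.0047).

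Rps27, another zinc-binding protein, was at 159, 178 and 137 CPM in Vehicle, 634, 512 and 189 CPM in LPS, and 253, 234, 270 and 171 CPM in LPS+TSLP. LPS replicate 3 stood just above the Vehicle libraries. The log2 fold change with LPS was 1.49 (SE 0.37, adjusted p = 0.016), and Rps21 gave 1.46 (SE 0.41, adjusted p = 0.026). Rps25, which takes part in translation from internal entry sites, rose by 1.0 (SE 0.24, adjusted p = 0.013). Rps24 rose by 1.44 (SE 0.42, adjusted p = 0.03), and Rps27a, made as a fusion with ubiquitin, by 1.20 (SE 0.37, adjusted p = 0.037). Rps2, whose coding sequence of 882 bases is among the longer ones, was also called higher. Of the genes not called, Rps6, the substrate of S6 kinase, had 0.74 (SE 0.27, adjusted p = 0.061), and the X-linked Rps4x had 0.43 (SE 0.27, adjusted p = 0.26). Rpsa, first known as the laminin receptor, had 0.89 (SE 0.30, adjusted p = 0.052).

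Rpl38, a small large-subunit protein known to be needed for translation of Hox mRNAs, had the largest fold of the family. Its levels were 97.8, 63.7 and 73.4 CPM in Vehicle, 742, 365 and 210 CPM in LPS, and 278, 191, 196 and 104 CPM in LPS+TSLP. All LPS and all LPS+TSLP libraries were above Vehicle, and the 2 treated groups overlapped. This was a rise of 2.49 on the log2 scale (SE 0.46, adjusted p = 0.0055), or 5.6-fold.

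Rpl21 stood at 65.5, 78.2 and 44.5 CPM in Vehicle, 330, 238 and 116 CPM in LPS, and 101, 90.5, 152 and 110 CPM in LPS+TSLP. Rpl36a was at 85.6, 76.5 and 72.5 CPM, then 436, 261 and 151 CPM, then 191, 163, 160 and 91.7 CPM in the same order. In both genes the treated groups were apart from Vehicle and overlapped each other. Their log2 fold changes with LPS were 1.86 (SE 0.36, adjusted p = 0.0067) and 1.85 (SE 0.37, adjusted p = 0.0069).

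Rpl23, which also binds the p53 regulator Mdm2, was at 189, 149 and 168 CPM in Vehicle, 658, 430 and 337 CPM in LPS, and 366, 307, 357 and 241 CPM in LPS+TSLP. Both treated groups were above Vehicle. It rose with LPS by 1.49 on the log2 scale (SE 0.27, adjusted p = 0.0052). Rpl35a gave 1.64 (SE 0.39, adjusted p = 0.014), Rpl37 gave 1.11 (SE 0.25, adjusted p = 0.011) and Rpl39, a protein of the exit tunnel, gave 0.98 (SE 0.22, adjusted p = 0.012).

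Rpl41 has the shortest coding sequence of the family, 78 bases. It was at 499, 455 and 449 CPM in Vehicle, 1728, 812 and 880 CPM in LPS, and 1344, 525, 633 and 562 CPM in LPS+TSLP, all treated libraries being above Vehicle. It rose with LPS by 1.29 on the log2 scale (SE 0.40, adjusted p = 0.037), less than Rpl38 or Rps29. Rpl34 rose by 1.19 (SE 0.27, adjusted p = 0.011).

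The 2 longest large-subunit genes, Rpl4 (1260 coding bases) and Rpl3 (1212), had small folds. Rpl3, near the peptidyl transferase centre, was at 609, 524 and 488 CPM in Vehicle, 823, 584 and 560 CPM in LPS, and 503, 356, 448 and 482 CPM in LPS+TSLP. Vehicle and LPS overlapped (log2 fold change 0.28, SE 0.23, adjusted p = 0.38). Rpl4 had 0.33 (SE 0.21, adjusted p = 0.27) and Rpl5, which carries the 5S ribosomal RNA, had 0.43 (SE 0.19, adjusted p = 0.11).

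In the stalk, 1 of 3 genes passed. Rplp1 was at 598, 610 and 565 CPM in Vehicle, 2095, 947 and 844 CPM in LPS, and 1476, 832, 951 and 687 CPM in LPS+TSLP, which is 1.13 on the log2 scale for LPS (SE 0.37, adjusted p = 0.047). Rplp2 had 1.42 (SE 0.51, adjusted p = 0.063) and Rplp0, the stalk base, 0.66 (SE 0.28, adjusted p = 0.10). All 3 were apart from Vehicle in every LPS library, and the first replicates of LPS and LPS+TSLP were their 2 highest libraries.

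Several of these calls were lost without LPS replicate 1, and leaving out other libraries lost calls too. Of 10 fits with 1 library left out, 4 called Rplp1, 6 called Rps21, Rps24 and Rpl41, and 7 called Rps27 and Rps27a. Without LPS replicate 1 Rps27 was at 1.15 (adjusted p = 0.067), Rps21 at 0.91 (0.13), Rps24 at 0.90 (0.15) and Rps27a at 0.81 (0.16), none of them called. In the large subunit and stalk, the calls of Rpl35a at 1.11 (0.06), Rpl41 at 0.85 (0.17) and Rplp1 at 0.60 (0.24) were lost, as were those of the paralogue Rpl22l1 at 0.83 (0.086) and the pseudogene Rpl6l at 0.70 (0.097), described further on. The calls of Rps25 at 0.92 (0.044), Rpl37 at 0.89 (0.042), Rpl39 at 0.81 (0.048) and Rpl34 at 0.93 (0.048) held.

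Coding length tracked the size of the difference within the family. Of the 27 core genes with the shortest coding sequences (78 to 408 bases) 25 rose with LPS, with a median log2 fold change of 1.13. In the middle 25 genes (411 to 579 bases) 17 rose, with a median of 0.91, and in the longest 25 (585 to 1260 bases) 4 rose, with a median of 0.69. Across the 77 genes Spearman's rho of fold change with coding length was -0.69, a correlation across genes of the same libraries, which are not independent.

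Other protein-coding genes of the same lengths showed a like order at lower values. Of 787 others in the shortest range 32.9% were called higher (median 0.63), of 947 in the middle range 23.9% (median 0.40), and of 4827 in the longest range 14.5% (median 0.10). When a trend of each library's counts with gene length was removed, 30 of the 85 ribosomal protein genes were called higher. This was 35.3%, beside 13.4% of all genes, and the median of the 85 was 0.67. The number of core genes that rose was then 17 of 27, 9 of 25 and 2 of 25 in the 3 ranges. Of the other protein-coding genes 180 of 787, 175 of 947 and 642 of 4827 rose. In the longest range the core genes' share was thus below that of the others. Length moved with the result over all genes, and its part beyond this was not tested.

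**Figure D4:**
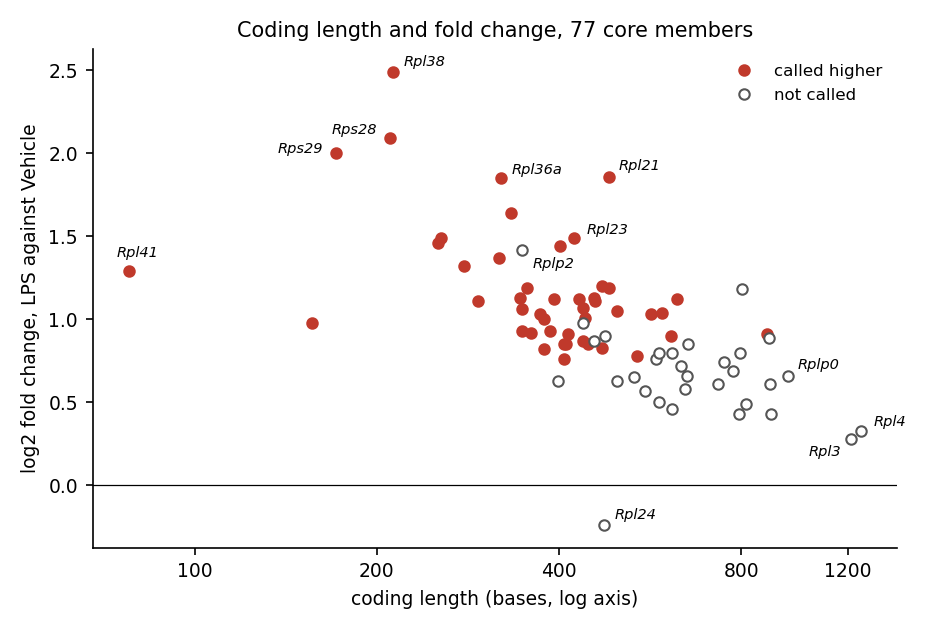
Log2 fold change of LPS against Vehicle (vertical axis) against coding length in bases (horizontal log axis) for 77 core ribosomal protein genes. Filled points are the 46 genes called higher and open points the 31 not called. Short genes such as Rpl38, Rps28 and Rps29 lie at 2.0 to 2.49, and the long genes Rpl3 and Rpl4 at 0.28 and 0.33.

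Start regions were compared because most of the core genes moved together. RefSeq (GRCm38.p6) gave 76 windows, from 250 bases before to 50 after the start, for 64 of the 89 genes; Rps29, Rpl3 and Rplp1 had none. A run of at least 8 pyrimidines (C or T) within 20 bases of the start, on the gene's strand, was in 42.1% of these windows and in 16% of all 32851 windows. Of the letters searched on both strands of the whole window, CCGGAAG, the core site of the ETS family, was in 35.5% against 8.86%. AAGATGG, the YY1 core, was in 15.8% against 6.34%, and CTCTTTCC, which can be part of a pyrimidine run, in 17.1% against 3.12%. Windows of the same gene can overlap, so a match can enter more than once. Every Rpl35a window held both of these motifs, and every Rps21 window held CTCTTTCC. The TATA box letters TATAAA were in 10.5% against 13.6%. A match is a description and not a site shown to be used. The 30 tested genes with such a run had a median log2 fold change with LPS of 1.02, with 19 of them higher, and the 31 with a window but no such run had 0.91, with 17 higher.

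The windows below run from 40 bases before to 20 after the annotated start, with the longest pyrimidine run near the start in capitals. They show genes that rose with LPS, 3 with a long run and 2 without. Rpl38 is from chr11:114668540-114668599 (plus strand), Rps27 from chr3:90213629-90213688 (minus strand), Rpl22l1 from chr3:28805468-28805527 (plus strand), Rps28 from chr17:33824543-33824602 (minus strand) and Rpl23 from chr11:97782420-97782479 (minus strand).
Rpl38: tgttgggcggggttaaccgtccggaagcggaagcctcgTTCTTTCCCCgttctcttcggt
Rps27: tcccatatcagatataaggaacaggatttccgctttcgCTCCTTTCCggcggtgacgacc
Rpl22l1: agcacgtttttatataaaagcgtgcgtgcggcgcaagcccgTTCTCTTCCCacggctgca
Rps28: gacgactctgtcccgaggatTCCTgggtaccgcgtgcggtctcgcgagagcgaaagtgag
Rpl23: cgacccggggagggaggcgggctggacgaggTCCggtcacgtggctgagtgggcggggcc
Rpl38 has the ETS letters just before its run, Rpl22l1 has TATAAA, and Rps28 and Rpl23 have runs of 4 and 3 bases.

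Of the 12 paralogues and copies 8 were tested, and 3 rose with LPS. Rps27l, a paralogue of Rps27 that p53 is known to induce, had the smallest adjusted p of the family. It was at 40.9, 49.7 and 46.9 CPM in Vehicle, 127, 107 and 82 CPM in LPS, and 79.1, 68.9, 67.9 and 57.5 CPM in LPS+TSLP. The 3 groups did not overlap, with LPS highest and Vehicle lowest. It was higher in LPS than in Vehicle by 1.20 on the log2 scale (SE 0.20, edgeR adjusted p = 0.0041). The call was lost when a trend of each library's counts with GC content was removed, where the value was 0.33 (adjusted p = 0.41).

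Rpl22l1, a paralogue of Rpl22, was at 16.7, 23.6 and 23.8 CPM in Vehicle, 55.4, 46.3 and 29.6 CPM in LPS, and 53.4, 48, 42.7 and 31.9 CPM in LPS+TSLP. Both treated groups lay above Vehicle and covered the same range. With LPS it rose by 1.03 on the log2 scale (SE 0.27, adjusted p = 0.019). With the GC trend removed the value was 0.11 (adjusted p = 0.84), and 6 of 10 fits with 1 library left out called it. The processed pseudogene Rpl6l rose by 1.09 (SE 0.29, adjusted p = 0.021), but 76.4% of its 50-base stretches also occur in other genes, Rpl6 first, so its reads may come from there. Rpl7l1 had 0.38 (SE 0.18, adjusted p = 0.13) and Rps4l 0.13 (SE 0.27, adjusted p = 0.76). Rpl3l, the paralogue of Rpl3 known from heart and skeletal muscle, had 79 counts in all and 1.77 (SE 0.81, adjusted p = 0.13).

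The copy Rps3a2 was high in 2 libraries of different groups. This processed pseudogene at chr14:88123017-88123808 matches the coding sequence of Rps3a1 at 99.5% of 792 bases, with 4 mismatches. Rps3a3, at chr13:108670603-108671397, matches at 98.9% of 795 bases, with 9. The stretch below, bases 609 to 668 of the Rps3a1 coding sequence counted from its start codon, holds 2 of the 4 differences (A645T and T668C, Rps3a1 base first), in capitals, and shows how little sequence separates the copies.
Rps3a1: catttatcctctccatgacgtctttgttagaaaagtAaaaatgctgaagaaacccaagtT
Rps3a2: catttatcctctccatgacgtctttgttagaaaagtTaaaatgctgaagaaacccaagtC

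Rps3a2 was at 2.86, 61.8 and 3.06 CPM in Vehicle, 5.42, 4.12 and 173 CPM in LPS, and 8, 3.17, 3.71 and 3.72 CPM in LPS+TSLP. Vehicle replicate 2 and LPS replicate 3 stood far above the other 8 libraries, so the groups overlapped, and the log2 fold change with LPS was 1.43 (SE 1.37, adjusted p = 0.46). It was -2.19 without LPS replicate 3. Rps3a3 was also highest in LPS replicate 3, at 9.89 CPM, against 1.2 to 3.84 CPM in the others. Gm7600, a further gene that shares stretches with Rps3a1, had 35.9 CPM there and 4.7 CPM in Vehicle replicate 2.

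Rps3a1 itself did not stand out in Vehicle replicate 2 or LPS replicate 3. It was at 589, 477 and 533 CPM in Vehicle, 1448, 761 and 574 CPM in LPS, and 1759, 714, 792 and 654 CPM in LPS+TSLP. Its 2 highest libraries were the first replicates of LPS and LPS+TSLP. Of the 50-base stretches of these genes 71% (Rps3a1), 90.2% (Rps3a2) and 65.1% (Rps3a3) occur in another gene, so the split of reads between them is uncertain.

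**Figure D5:**
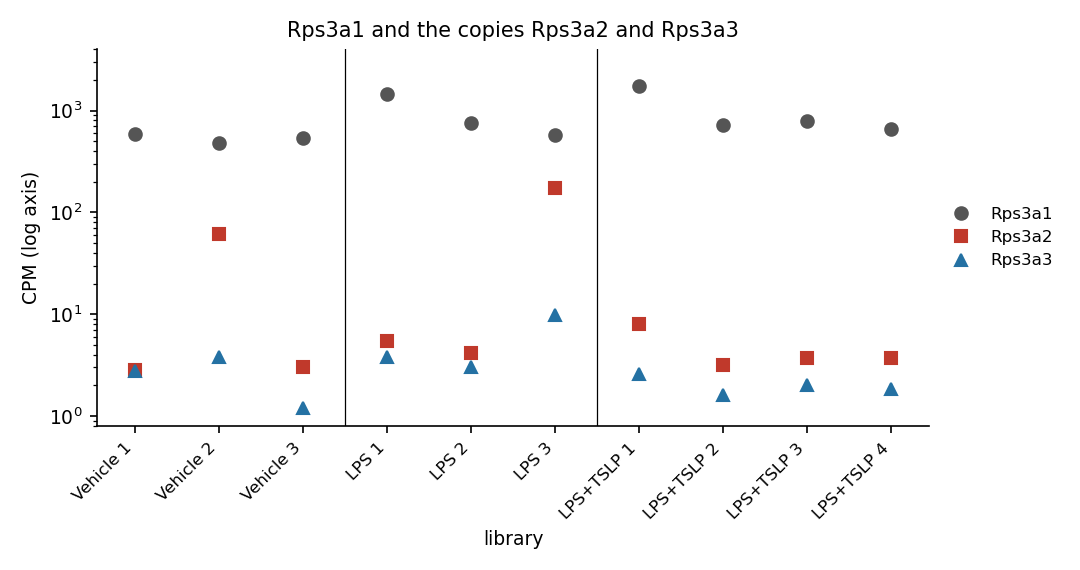
Level in CPM (log axis) of Rps3a1 and its processed copies Rps3a2 and Rps3a3 in each of 10 libraries, with lines between the groups. Rps3a2 reaches 61.8 CPM in Vehicle replicate 2 and 173 CPM in LPS replicate 3 and stays at 2.86 to 8 CPM elsewhere.

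Comparing LPS+TSLP with LPS, which asks what TSLP pretreatment changes, no ribosomal protein gene passed the threshold. The count was 0 of the 84 genes tested, Rps29 being left out of the tests, and 0% of all genes were called in either direction. DESeq2 and limma-voom also called 0 of the 84, and the smallest adjusted p by edgeR was 0.59. At an unadjusted p under 0.05 there were 18 of the 84 and 1387 of all genes tested. Over the 85 genes, Rps29 included, the median log2 fold change was -0.40, against 0.02 over all genes, with 80 below 0. Without LPS replicate 1 the median was -0.08, and without the first replicates of LPS and LPS+TSLP it was -0.21.

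Groups did not overlap, with LPS+TSLP lower, for 6 of the 84 genes other than Rps29 (3.54% of all genes), and with LPS+TSLP higher for 1, Rpl24 (3.88%). The 6 were Rpl37, Rps27l, Rpl3, Rps3, Rpl7l1 and Rps3a3. Rpl37 was at 396, 293 and 232 CPM in LPS and 188, 212, 220 and 150 CPM in LPS+TSLP, with Vehicle at 173, 129 and 123 CPM. Its log2 fold change was -0.67 (SE 0.23, adjusted p = 0.59). Rps27l had -0.62 (SE 0.19) and Rpl3 had -0.55 (SE 0.21), both at the same adjusted p. Rpl3 was the only core gene whose LPS+TSLP mean lay below the Vehicle mean.

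Among genes whose LPS and LPS+TSLP ranges overlapped, Rps28 had a log2 fold change of -1.25 (SE 0.33), Rpl38 of -1.19 (SE 0.41), Rpl21 of -1.01 (SE 0.33) and Rps21 of -0.99 (SE 0.37), each with an adjusted p of 0.59. Rps3a3 had -1.48 (SE 0.48) and Rps3a2 -3.71 (SE 1.35), and LPS replicate 3 was the high library in both. Across the 77 core genes the rho of this fold change with coding length was 0.46. This comparison and that of LPS with Vehicle share the LPS libraries with opposite sign, so a gene with high LPS values is pushed up in 1 and down in the other.

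Rpl24 ran the other way. It was at 1.07, 1.39 and 2.08 CPM in Vehicle, 1.71, 1.47 and 0.666 CPM in LPS, and 3.58, 3.51, 3.92 and 1.77 CPM in LPS+TSLP. LPS+TSLP lay above LPS in all 4 libraries, by 1.32 on the log2 scale (SE 0.45, adjusted p = 0.59). These levels are low for a core gene. Per kilobase of transcript, Rpl24 had 2.23 CPM in Vehicle, the lowest of the 77, followed by Rps10 at 3.45 and Rpl13a at 12.4, whereas Rplp1, Rpl41 and Rpl13 led with 1184, 860 and 795.

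Those 3 genes of low level share exons with another annotated gene on the same strand: 47% of the exon bases of Rpl24 with Gm28037, 20.6% of those of Rps10 with RPS10-NUDT3, and 35.4% of those of Rpl13a with Gm45713. All 3 partner genes had 0 counts in every library. Reads in shared exons are not assigned by counters that skip ambiguous reads, and the counting mode is not given in the sources used here, so the levels of these 3 genes cannot be set beside the others.

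Comparing LPS+TSLP with Vehicle, 3 of 84 ribosomal protein genes rose and 0 fell, beside 8.82% higher and 5.35% lower among all genes tested. They were Rpl22l1, by 1.04 on the log2 scale (SE 0.26, adjusted p = 0.024), Rpl23, with 0.91 (SE 0.25, adjusted p = 0.037), and Rpl39, with 0.70 (SE 0.21, adjusted p = 0.049). The share called was below that of all genes, yet the median log2 fold change was 0.56, against 0.03 over all genes, and 82 of 85 lay above 0. All LPS+TSLP libraries exceeded all Vehicle libraries for 37 of the 85 genes, against 15.7% of all genes.

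The count of calls was not stable here. No ribosomal protein gene was called without Vehicle replicate 1 or 2 or without LPS+TSLP replicate 2 or 3. Of all genes 2.47, 2.3, 4.91 and 4.91% were called higher in these fits. There was 1 call without Vehicle replicate 3, LPS replicate 2 or LPS+TSLP replicate 1, and 1 with the length trend removed. This was 1.19% each time, beside 8.29, 6.93, 11.4 and 9.21% of all genes. With the GC trend removed the edgeR calls of Rpl22l1 at 0.21 (adjusted p = 0.69) and Rpl39 at 0.79 (0.057) were lost. That of Rpl23 at 1.10 (0.035) held. With the length trend removed those of Rpl23 at 0.66 (0.053) and Rpl39 at 0.39 (0.12) were lost, and that of Rpl22l1 at 0.83 (0.024) held. DESeq2 called 14 genes, its share over all genes not being given here. Without LPS+TSLP replicate 4, the lowest LPS+TSLP library for 67 of 77 core genes, edgeR called 17, or 20.2%, beside 11.8% of all genes. Without the first replicates of LPS and LPS+TSLP 9 were called (10.7%, below the 13.3% of all genes), with a median of 0.47. With mitochondrially encoded genes left out of the table the count was 3 and the median 0.58. The group means ran from Vehicle through LPS+TSLP to LPS in 73 of the 77 core genes. The exceptions were Rpl3 and the 3 genes whose LPS+TSLP mean was above that of LPS, Rpl17, Rpl24 and Rps3a1.

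Genes that work with the ribosomal proteins were read from lists, beside 14.2% of all genes called higher and 10.7% lower with LPS. With LPS, 17 of 36 ribosome biogenesis factors rose and 0 fell, with a median log2 fold change of 0.66. Nop58, a core protein of the box C/D particles that methylate ribosomal RNA, had a mean of 5.13 CPM in Vehicle and 57.2 CPM in LPS, which is 3.47 on the log2 scale (SE 0.42, adjusted p = 0.002). Ncl, which encodes nucleolin, had 2.14 (SE 0.25, adjusted p = 0.0018). Dkc1, the pseudouridine synthase dyskerin, had 2.55 (SE 0.45, adjusted p = 0.0047), and Brix1, a large-subunit assembly factor, had 1.05 (SE 0.19, adjusted p = 0.0048). Of 14 genes of RNA polymerase I and its factors 4 rose. The subunit gene Twistnb had 1.64 (SE 0.23, adjusted p = 0.0023), and Taf1d, of its initiation factor SL1, had 2.48 (SE 0.48, adjusted p = 0.0062).

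Of 25 translation factors and other TOP mRNAs 11 rose with LPS and 0 fell, beside 14.2% higher and 10.7% lower among all genes. The median log2 fold change of the 25 was 0.72. Gas5, a noncoding TOP transcript that hosts small nucleolar RNAs, was at 25.1, 27.2 and 27.7 CPM in Vehicle, 121, 81.2 and 63.4 CPM in LPS, and 71.7, 63.5, 66.1 and 38.3 CPM in LPS+TSLP. The 3 LPS and 4 LPS+TSLP libraries were all above Vehicle. Its log2 fold change was 1.73 with LPS (SE 0.28, adjusted p = 0.0033) and 1.17 for LPS+TSLP against Vehicle (SE 0.26, adjusted p = 0.018). Npm1, the nucleolar chaperone nucleophosmin, gave 1.64 (SE 0.20, adjusted p = 0.002) and 1.17 (SE 0.19, adjusted p = 0.0045).

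Eef1a1, which encodes the elongation factor that delivers aminoacyl-tRNA, had -0.09 (SE 0.25, adjusted p = 0.82) with LPS. Fau, whose protein holds a small-subunit protein, had 0.97 (SE 0.37, adjusted p = 0.076) and Rack1, a scaffold on the small subunit, 0.45 (SE 0.23, adjusted p = 0.18). Among 15 regulators of ribosomal protein synthesis 3 rose and 4 fell, beside 14.2% higher and 10.7% lower among all genes. The gene of S6 kinase, Rps6kb1, rose by 2.53 (SE 0.44, adjusted p = 0.0043) and Larp4 by 2.42 (SE 0.41, adjusted p = 0.004). Eif4ebp2, an inhibitor of cap-dependent translation, fell by 1.14 on the log2 scale (SE 0.24, adjusted p = 0.0084). Its relative Eif4ebp1 went the other way and rose by 0.70 (SE 0.16, adjusted p = 0.013). Mean levels of Mtor and Rptor were 86.6 and 78.6 CPM in Vehicle and 42.6 and 42.8 CPM in LPS.

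Mitochondrial ribosomal proteins, which build the separate ribosome of the mitochondrion, went in the same direction: 31 of 77 tested rose with LPS and 0 fell, with a median of 0.59. Mrpl32 had the smallest adjusted p, with 1.39 (SE 0.23, adjusted p = 0.0036), and Mrpl52 a larger fold, 1.61 (SE 0.27, adjusted p = 0.004). Of 86 tested ribosomal protein pseudogenes by name 9 rose, a share below the 14.2% of all genes, with a median of 0.65. The table holds 298 of them, 111 at 0 in all libraries. For LPS+TSLP against LPS, 0 genes of any of these lists were called. Against Vehicle, LPS+TSLP had 5 of 36 biogenesis factors, 4 of 25 TOP mRNAs and 3 of 77 mitochondrial ribosomal proteins higher and 0 lower, beside 8.82% higher among all genes. The last of these shares is below that of all genes.

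Markers of other cells and of lung tissue were also read from lists, beside 14.2% of all genes called higher and 10.7% lower with LPS. The summed level of 12 neutrophil markers, all detected, was 483 to 1366 CPM in Vehicle, 1724 to 2460 CPM in LPS and 617 to 1248 CPM in LPS+TSLP. Of the 12, 10 were not called. Every LPS library exceeded every Vehicle library in 5 of the 12, against 24.7% of all genes. In 1, which was not called, every LPS library lay below every Vehicle library, against 25.1% of all genes. The marker genes called were Itgam, with 2.77 (SE 0.41, adjusted p = 0.0026), and Ly6g, with 1.67 (SE 0.45, adjusted p = 0.022). The neutrophil sum was 1999, 1724 and 2460 CPM in LPS replicates 1, 2 and 3. The median log2 level of the core ribosomal protein genes relative to the Vehicle mean was 1.35, 0.81 and 0.48 in these libraries. Of 8 B cell markers 2 fell with LPS, and of 10 T cell markers 0 were called, with sums of 96.3 to 163 CPM in Vehicle and 99.5 to 195 CPM in LPS. Of the 14 lung markers 0 rose and 3 fell with LPS, with a median of -0.91. They were Col1a1, with -1.66 (SE 0.39, adjusted p = 0.013), Col3a1, with -1.23 (SE 0.36, adjusted p = 0.029), and Cdh5, with -0.92 (SE 0.30, adjusted p = 0.043), the first 2 collagen genes and the last of endothelium. The sum over the 14 was 32321 to 46411 CPM in Vehicle, 18458 to 41905 CPM in LPS and 27467 to 42115 CPM in LPS+TSLP. Of 7 red cell markers 0 were called with LPS, the sums being 1966 to 3252 CPM in Vehicle and 1578 to 5272 CPM in LPS. The part of all these markers in the ribosomal protein result was not tested.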

How the data were processed

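Total RNA from lung was sequenced on Illumina libraries, per the labels' protocols. The deposited values are raw read counts per gene, counted by the authors on GRCm38/mm10; the submitters' processing notes name HTSeq 0.6.0, HISAT2 and CASAVA. The annotation release, the strand setting and the treatment of reads that fit several genes are not given in the sources used here.

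Members and gene lists were chosen with earlier results of these data known. Counts were filtered with filterByExpr, scaled by TMM and tested with edgeR 4.0.16 quasi-likelihood (robust, R 4.3.3) in 1 fit of 3 groups and 10 libraries with 7 residual degrees of freedom, two-sided. Adjusted p-values are Benjamini-Hochberg over 17139 genes, and the SE is the log2 fold change over the square root of F. The script was tested on simulated data. CPM uses TMM-scaled library sizes. Levels are per library, and their precision is limited by the number of libraries. No library was a copy of another (chi-square within groups).

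Named genes were Rps29, the paralogues and copies, per comparison the 8 called with the smallest adjusted p per direction (or, with none called, the 4 most changed per direction without overlap), the 5 nearest Rps29, and up to 4 per list. Other members were named after their values were seen. Positions, coding lengths (the best-supported principal transcript) and shared 50-base stretches come from GENCODE on GRCm38. Alternatives were DESeq2 1.42.0, limma-voom 3.58.1, other scalings and filters, GC or length trends removed (loess span 0.3), a replicate block and libraries left out. A few items are not reported here.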

Additional observations from a re-analysis of the deposited data

Results flagged for a closer look

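For 37 genes named above, the 4 LPS+TSLP libraries were checked for 1 library far from the rest by Dixon's criterion, which chance alone meets in about 1 of 20 groups. LPS+TSLP replicate 1 was such a library in 5 genes. It had Rps3a1 at 1759 CPM, where the next was 792, and Rps3a2 at 8 CPM, where the next was 3.72. Rplp2 was at 1042 CPM there, against 414 for the next, Rpl41 at 1344 CPM, against 633, and Rps21 at 276 CPM, against 139. The 5 share that library, so they are not independent. It is also the library with 13.1% of its counts in mitochondrially encoded genes, whose part in these levels was not tested.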

How the results depend on the processing

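For LPS against Vehicle, 49 genes higher became 30 with the length trend removed (all 30 among the 49) and 7 to 59 with 1 library left out. With the length trend removed this was 35.3%, beside 13.4% of all genes. With 1 library left out it was 8.24 to 69.4%, beside 5.75 to 17.5% of all genes. For LPS+TSLP against Vehicle, 3 became 14 with DESeq2 and 7 with only those 2 groups fitted. It became 6 (7.14%, beside 4.47% of all genes) with the GC trend removed and 1 (1.19%, beside 9.21%) with the length trend removed. Without both first replicates of LPS and LPS+TSLP it was 9 (10.7%, beside 13.3%). With 1 library left out it was 0 to 17 (0 to 20.2%, beside 2.3 to 11.8% of all genes). The median for LPS+TSLP against LPS was -0.60 to -0.08 with 1 library left out.

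With the replicate number as a block, LPS+TSLP against Vehicle gave 24 calls. The shares of all genes for DESeq2, the fit of only those groups and the block are not given here. Same-numbered libraries correlated at -0.34 to 0.4 after removal of group means, over 0.1 in 3 of 9 pairs, and were treated as unpaired.

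Signs changed for some genes that were not called. With 1 library left out, log2 fold changes of LPS against Vehicle ran from -0.03 to 0.41 for Rps4l, -2.19 to 4.33 for Rps3a2 and -0.50 to 0.10 for Rpl24. Those of LPS+TSLP against LPS ran from -0.01 to 0.43 for Rps4l, -0.64 to 0.02 for Rpl6l, -0.22 to 0.24 for Rpl22l1 and -0.39 to 0.59 for Rps3a1, and those of LPS+TSLP against Vehicle from -0.70 to 0.01 for Rps3a3, -2.79 to 0.64 for Rps3a2 and -0.00 to 0.16 for Rpl7l1. For LPS against Vehicle, Rps4l was at -0.31 with the length trend removed and -0.02 without both first replicates, and Rpl5 at -0.01 with the GC trend removed, which also gave -0.20 for Rps27l in LPS+TSLP against Vehicle. The causes were not tested.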
